A study of Homo sapiens with 2 samples.

Results

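Tetraspanins are small membrane proteins that cross the membrane several times and gather partner proteins, such as integrins, immunoglobulin superfamily receptors and proteases, into patches of the cell surface and of endosomes. In B cells they steer adhesion, class II antigen presentation and survival signals. The 10 genes described here, CD9, CD37, CD53, CD63, CD81, CD82, CD151, TSPAN3, TSPAN14 and TSPAN33, encode tetraspanins of the lymphocyte surface, endosomes or related sites. They were chosen on the deposited values themselves, with results of the same arrays known, so their levels are a description and no test was made. Each member was the gene of exactly 1 probe set naming it alone, and all 10 were found among 14232 genes with 1 value.

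The values came from Affymetrix exon arrays hybridised with total RNA of SUDHL6 and HT, established human cell lines of diffuse large B cell lymphoma, a cancer of mature B cells. Both lines were untreated and grown in supplemented RPMI medium, and 1 array of 22011 probe sets was run for each. The series title places these baseline profiles in work on a small molecule that inhibits the Polycomb repressive complex PRC2. With 1 array per line there is no measure of spread between cultures, no p-value and no replicate check for any difference below, and the number of arrays limits the precision of each value.

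All levels are log2 expression values. Differences are SUDHL6 minus HT on the log2 scale, so that 1 stands for 2-fold. The text counts as different any gene with a difference of at least 1 in either direction and a higher value at or above the dim level, a reference for unexpressed genes. This level was set for each line at the 95th percentile of 225 olfactory receptor genes, 3.81 in SUDHL6 and 4.11 in HT. Lying under or over it proves neither silence nor expression of a gene. Where the lower value was below that level, the fold was computed against the level and is given as "at least". The signal of a probe set depends on its probes, so levels are compared between lines and never between genes. Of 7 B cell markers with a value, all 7 reached the dim level, among them PAX5 (6.998 in SUDHL6 and 7.63 in HT), CD79A (6.47 and 6.58) and MS4A1 (11.33 and 8.75), which was 6.01-fold higher in SUDHL6. Of 7 T cell markers, 5 were below that level in each line, the receptor complex genes CD3D, CD3E and CD3G among them, while CD7 (5.49 and 5.73) and CD8A (4.40 and 4.25) reached it.

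Promoters of the members that stood furthest apart in each direction are shown for the sequence context of the results. CD9, much higher in HT, lies on chromosome 12, and CD53, higher in SUDHL6, on chromosome 1. The RefSeq promoter table for GRCh38.p14 held 6 of the 10 members, with 4 windows for CD9 and 2 for CD53, each running from 250 bases before to 50 bases after an annotated start. For each gene the window with the most CpG dinucleotides is printed, 5′ to 3′ on the plus strand, with CG in capitals: chr12:6200150-6200449 for CD9 and chr1:110872898-110873197 for CD53.

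CD9: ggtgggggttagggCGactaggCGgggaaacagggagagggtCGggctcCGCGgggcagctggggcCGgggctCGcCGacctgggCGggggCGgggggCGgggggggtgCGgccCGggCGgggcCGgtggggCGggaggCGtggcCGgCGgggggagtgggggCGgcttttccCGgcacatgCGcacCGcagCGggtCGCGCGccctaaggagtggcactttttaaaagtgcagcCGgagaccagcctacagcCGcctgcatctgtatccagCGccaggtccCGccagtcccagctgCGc

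CD53: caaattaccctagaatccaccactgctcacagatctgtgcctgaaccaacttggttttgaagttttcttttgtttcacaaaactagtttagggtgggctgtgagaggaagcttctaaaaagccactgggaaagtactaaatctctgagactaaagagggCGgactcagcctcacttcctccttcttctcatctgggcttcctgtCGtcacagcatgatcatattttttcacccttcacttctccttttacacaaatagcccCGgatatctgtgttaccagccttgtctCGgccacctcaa

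The CD9 window held 32 CpG dinucleotides in 300 bases, and 18.9% of all 35116 windows of the table held as many or more. The CD53 window held 4, and 29.6% of all windows held 4 or fewer. The median window had 14. The other CD9 windows ranged down to 1 CpG and the other CD53 window held 3. The GC box GGGCGG, which itself contains a CpG, was found on either strand 6 times in the CD9 window and 1 time in the CD53 window, and 45.0% of all windows hold it. The core GAGGAA of sites for the haematopoietic factor PU.1 was found 0 times in the CD9 window and 2 times in the CD53 window, against 27.9% of all windows with a match. These contrasts hold for the printed windows only: the other CD53 window held 0 matches of either motif, and the other CD9 windows held 0 to 3 of the GC box, 2 of them with 1 match each of GAGGAA. These are descriptions of letters in the reference sequence, and neither methylation nor factor binding was measured here.

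CD9 held by far the widest difference of the 10 genes and was 1 of 3 members counted as different. CD9 was at least 42.0-fold higher in HT, TSPAN3 was 2.23-fold higher in HT, and CD53 was 2.05-fold higher in SUDHL6. Over all 14232 genes, 8.12% were counted as different, 3.50% as higher in SUDHL6 and 4.62% as higher in HT. Among the 9405 genes that reached the dim level the share was 12.3%. The members were chosen with these differences in view, and nothing is read from the 3 of 10 against these shares. The other 7 members differed by between -0.81 and 0.44.

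**Figure D1:**
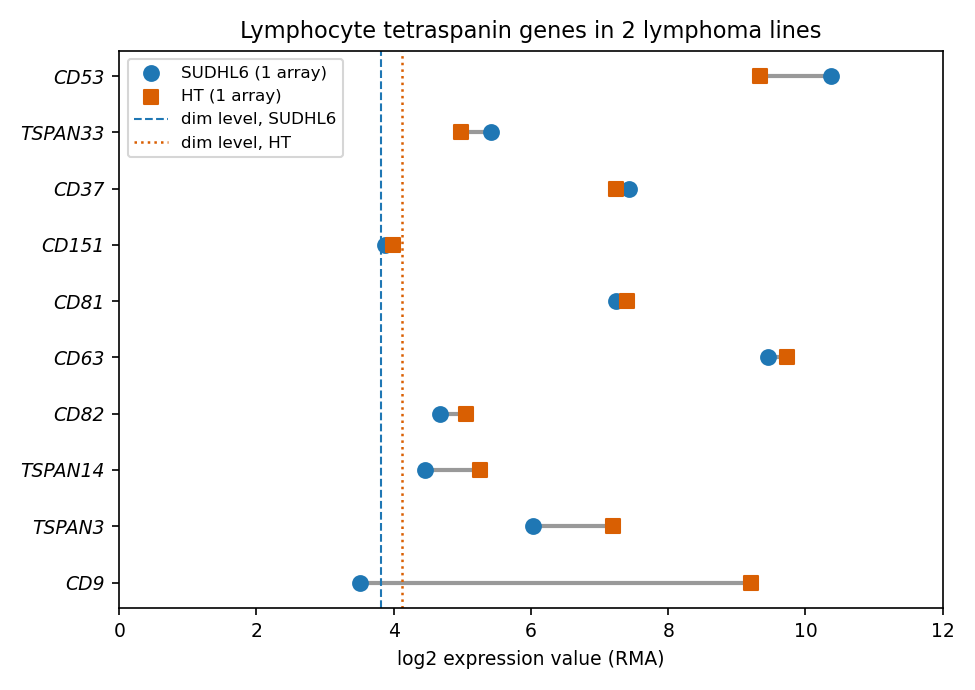
Log2 expression value (horizontal axis) of each of the 10 lymphocyte tetraspanin genes in SUDHL6 (blue circles) and HT (orange squares), 1 array each, ordered by difference, with the dim levels of 3.81 (SUDHL6, dashed) and 4.11 (HT, dotted). CD9 runs from 3.51 in SUDHL6 to 9.20 in HT, while the other pairs lie within 1.16 of each other.

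CD9 encodes a tetraspanin of platelets, plasma cells and subsets of B cells that binds integrins and immunoglobulin superfamily partners and is carried on exosomes. It stood at 3.51 in SUDHL6 and at 9.20 in HT. The SUDHL6 value was below the dim level of that line and the HT value was far above that of HT. The difference was -5.70, which makes CD9 at least 42.0-fold higher in HT. CD9 was 1 of 5 genes, of the 9405 that reached the dim level, that were lower in SUDHL6 by this much or more. In bulk RNA, fewer expressing cells and less RNA per cell cannot be told apart.

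TSPAN3, a broadly expressed tetraspanin, stood at 6.03 in SUDHL6 and 7.19 in HT. Both values were above the dim level, and HT was 2.23-fold higher, a difference of -1.16. Of the genes above the dim level, 9.77% differed by at least as much in either direction.

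CD53 encodes a tetraspanin found across white blood cells, where it is linked to adhesion and signalling. Its values were 10.38 in SUDHL6 and 9.34 in HT, differing by 1.03, or 2.05-fold. This lies just inside the threshold of 1, and 11.6% of the genes above the dim level differed by at least as much. It also lies within the central 95% of differences among the olfactory receptor genes, -1.03 to 1.26, though those genes served as the reference for dim signal. The nearest member outside the threshold was TSPAN14, at -0.81.

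CD37 and CD81, the tetraspanins most closely tied to B cell function, were nearly level between the lines. CD37, which is largely confined to leukocytes and is a target of antibodies against lymphoma, stood at 7.43 in SUDHL6 and 7.24 in HT, differing by 0.19. CD81, a widely expressed tetraspanin of the B cell surface, stood at 7.24 and 7.40, a difference of -0.16. Both genes were above the dim level in each line, and 66.2% and 71.1% of the genes above that level differed by at least as much as CD37 and CD81. With 1 array per line, how alike the lines are cannot be bounded.

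CD63 and CD82, tetraspanins of endosomes and of the surface, were both slightly higher in HT. CD63, a protein of late endosomes, lysosomes and exosomes, stood at 9.45 in SUDHL6 and 9.74 in HT, differing by -0.29. CD82, also known as a suppressor of metastasis, stood at 4.68 and 5.05, a difference of -0.37. CD151, which binds laminin-binding integrins, stood at 3.87 and 3.996. Its higher value, in HT, was below the dim level of that line, 4.11, and by this rule it was the 1 member of 10 that did not reach it. Its SUDHL6 value lay just above the level of SUDHL6, 3.81. None of the 3 exceeded the -0.37 of CD82 in size, and at least 42.8% of the genes above the dim level differed by as much.

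TSPAN14 and TSPAN33 belong to the TspanC8 subgroup, which escorts the protease ADAM10 to the cell surface, and they lay on opposite sides of 0. TSPAN14 stood at 4.46 in SUDHL6 and 5.26 in HT, 1.75-fold higher in HT. TSPAN33, known from activated B cells, stood at 5.42 and 4.97, 1.36-fold higher in SUDHL6. Neither reached a difference of 1.

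Of the 10 members, 7 had the lower value in SUDHL6 and 3 (CD37, CD53 and TSPAN33) the higher one. Their median difference was -0.22, beside -0.04 over all 14232 genes, of which 7534 were lower and 6157 higher in SUDHL6. The split of 7 and 3 was the same after quantile normalization, after loess and after the median difference was subtracted. It is not firm for every gene. CD81 narrowed to -0.05 after quantile normalization and -0.02 after loess, and CD151 did not reach the dim level.

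**Figure D2:**
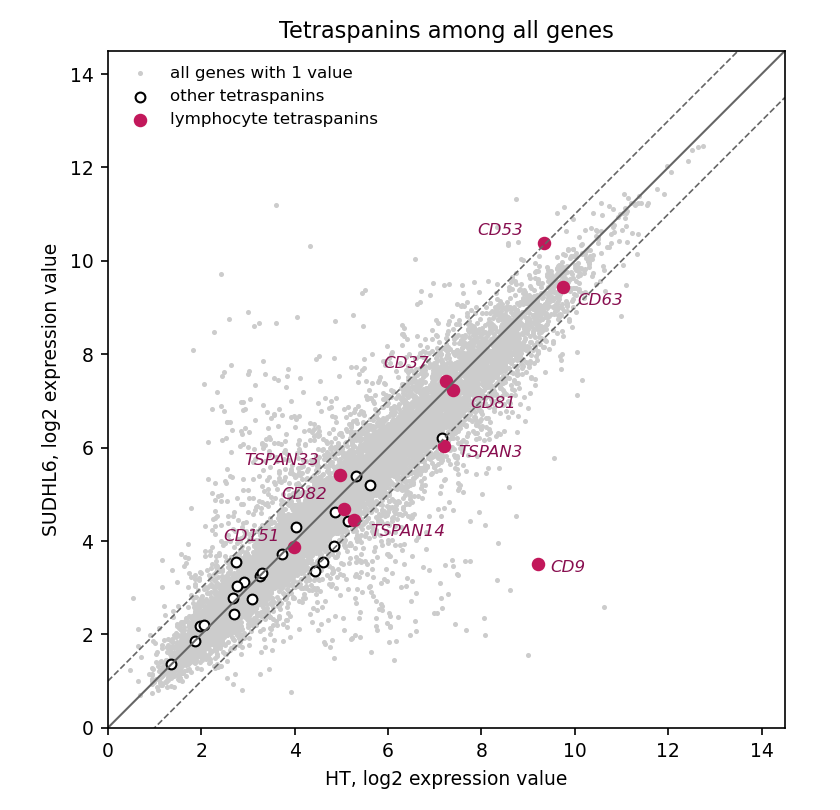
Log2 expression values of all 14232 genes in HT (horizontal axis) and SUDHL6 (vertical axis), with the 10 lymphocyte tetraspanins as filled red circles, the other tetraspanins as open circles, the line of equal values (solid) and differences of 1 either way (dashed). CD9 lies far to the right of the dashed band, CD53 and TSPAN3 sit at its upper and lower edges, and the other 7 named genes lie inside it.

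The rest of the tetraspanin family was mostly dim. Of 33 human tetraspanin genes, 32 had a value, and TSPAN19 had no probe set named for it here. Among the 22 genes that are not members, 9 reached the dim level, 13 lay below it on both arrays, 2 were counted as higher in HT and 0 as higher in SUDHL6. The shares over all 14232 genes were 4.62% higher in HT and 3.50% higher in SUDHL6. TSPAN15, another TspanC8 gene, stood at 3.37 in SUDHL6 and 4.44 in HT, or at least 1.55-fold higher. TSPAN11 stood at 3.55 and 4.61, at least 1.73-fold higher. Both HT values lay just above the dim level, and neither gene was counted when that level was set at the 99th percentile or when values were raised to it.

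Over all 22 of these genes, 11 had the lower value in SUDHL6, 9 the higher one and 2 the same value, with a median difference of -0.0068. Among those that reached the dim level, TSPAN13, at 6.21 in SUDHL6 and 7.15 in HT, and TSPAN18, at 3.89 and 4.84, differed by -0.94 and -0.95, just short of the threshold. UPK1A, a bladder uroplakin, stood at 4.42 and 5.14, TSPAN17 at 5.19 and 5.62, and TSPAN32 at 4.61 and 4.87. ROM1 (4.30 and 4.02) and TSPAN31 (5.38 and 5.30) had the higher value in SUDHL6. A probe set naming both CDK4 and TSPAN31 stood at 8.63 and 9.10. TSPAN4 and TSPAN8 held exactly the same value on both arrays, as did 3.09% of all probe sets.

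**Figure D3:**
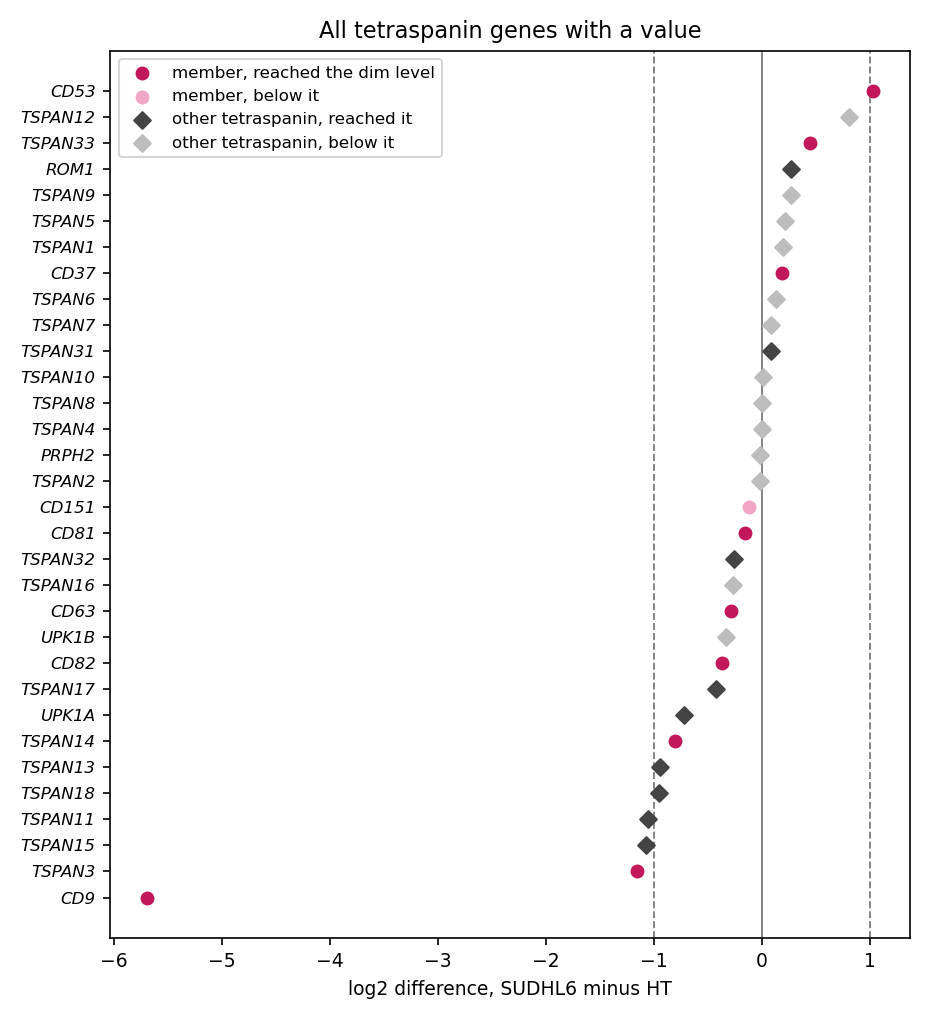
Log2 difference, SUDHL6 minus HT (horizontal axis), of the 32 tetraspanin genes with a value, members as circles and the other tetraspanins as diamonds, pale where the higher value was below the dim level, with dashed lines at -1 and 1. CD9 at -5.70 stands apart, TSPAN3, TSPAN15 and TSPAN11 lie just beyond -1, and CD53 alone lies beyond 1.

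Genes of tetraspanin partners, in lists chosen with earlier results of these data known, gave large differences in both directions. Over all 14232 genes, 3.50% were counted as higher in SUDHL6 and 4.62% as higher in HT. Nothing is read from the counts of these lists against those shares. Among integrin chains bound by CD9, CD81 and CD151, ITGB1, the common beta-1 chain, was the 1 of 7 counted as different. It stood at 4.34 in SUDHL6 and 8.08 in HT, 13.4-fold higher in HT, the direction of CD9. The other 6 chains with a value differed by between -0.35 and 0.21. ITGA4, the alpha-4 chain, shares its probe sets with CERKL. The brighter of these 2 stood at 7.37 and 7.40. Of 4 immunoglobulin superfamily partners, 0 were counted as different. IGSF8 stood at 4.84 and 4.88, while PTGFRN, a major CD9 partner, lay below the dim level at 3.27 and 3.39.

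ADAM10, the protease that TSPAN14 and TSPAN33 escort, has a probe set that also names HSP90AB4P, which stood at 8.18 in SUDHL6 and 8.62 in HT. Of 3 genes of the ADAM10 list with a value of their own, 0 were counted as different. Probe sets shared by ADAM17 and IAH1 and by NOTCH2 and NOTCH2NLA are not assigned to 1 gene; the first stood at 7.55 in SUDHL6 and 6.27 in HT and the second at 4.75 and 3.24, and with such probe sets included the count was 2. NOTCH1 stood at 4.20 and 4.07, and FCER2, which encodes the low-affinity IgE receptor shed by ADAM10, at 4.13 and 3.72.

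Class II genes, whose products meet CD63, CD82 and CD37 in endosomes and at the surface, were higher in SUDHL6 for 2 of 3 with a value. HLA-DMB, the peptide-loading chain, was 8.88-fold higher, at 8.61 against 5.46, and HLA-DRA was 2.61-fold higher. A probe set naming both HLA-DMA and HLA-DMB differed by 0.23. HLA genes are polymorphic, and probe matches were not examined.

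The list of membrane and signalling partners had 11 genes with a value, 3 counted as higher in SUDHL6 and 2 in HT. PRKCB, a protein kinase C gene whose product binds tetraspanins, stood at 5.94 in SUDHL6 and 3.46 in HT, or at least 3.54-fold higher in SUDHL6. PRKCA, of the same kinase family, was 2.28-fold higher there. EZR, which links membrane proteins to actin, was 2.25-fold higher there, at 9.50 against 8.33. CLEC7A, the receptor dectin-1 that CD37 holds at the surface of antigen-presenting cells, stood at 1.91 in SUDHL6 and 5.22 in HT, or at least 2.66-fold higher in HT. PTPN6, a phosphatase linked to CD37 signalling, was 3.73-fold higher in HT.

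Endosome, lysosome and exosome genes, which share compartments with CD63, had 16 members with a value, 3 counted as higher in HT, 1 as higher in SUDHL6 and 11 that reached the dim level without a difference of 1. LAMP3, a lysosomal membrane protein of mature dendritic cells, stood at 3.30 in SUDHL6 and 7.47 in HT, or at least 12.6-fold higher. RAB27A, a small GTPase of vesicle secretion, stood at 3.40 and 5.67, which puts HT higher by at least 3.61-fold, and LAMP2 was 2.77-fold higher, at 8.70 against 7.23. LAPTM5, a lysosomal protein of blood cells, was 5.28-fold higher in SUDHL6, at 10.73 against 8.33. The syntenin gene SDCBP, whose product sorts CD63 onto exosomes, stood at 7.99 and 8.11. The median differences of the 6 partner lists ran from -0.18 (endosome, lysosome and exosome) to 1.38 (class II), beside -0.04 over all genes. The class II median rests on 3 genes and is the HLA-DRA difference.

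**Figure D4:**
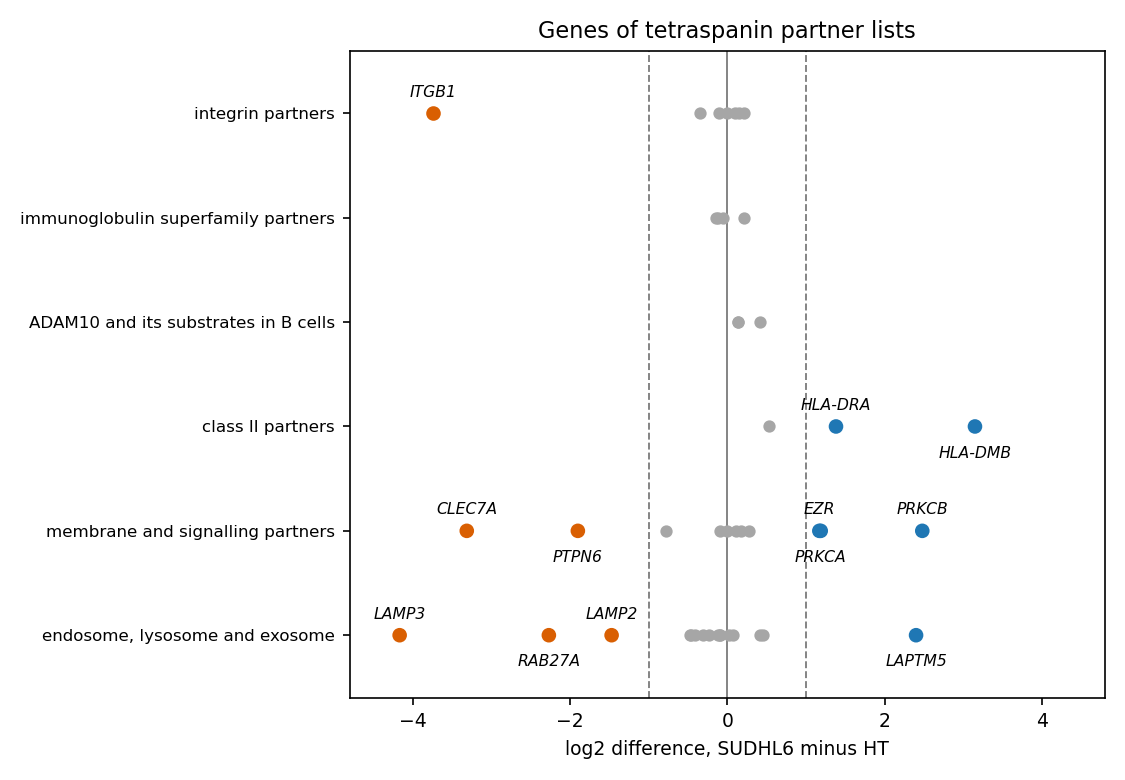
Log2 difference, SUDHL6 minus HT (horizontal axis), of the genes of 6 tetraspanin partner lists, each point a gene with 1 value, members left out, grey where not counted as different, blue and named where counted as higher in SUDHL6, orange and named where counted as higher in HT, with dashed lines at -1 and 1. The 6 orange genes reach from PTPN6, LAMP2 and RAB27A to LAMP3 at -4.16, and the 6 blue genes reach to HLA-DMB at 3.15.

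CD9 is also made by platelets, fibroblasts and epithelial cells, so markers of these cells were set beside it. Of 8 fibroblast and endothelial markers, the matrix genes LUM (2.38 in SUDHL6 and 6.22 in HT) and DCN (2.09 and 5.05) were counted as higher in HT, the direction of CD9. Over all 14232 genes, 4.62% were so counted, and nothing is read from the 2 of 8 against that share. The other 6 markers differed by between -0.36 and 0.10. The mean log2 value of these 8 was 3.25 in SUDHL6 and 4.15 in HT, with the wide differences of LUM and DCN included. Among them the collagen gene COL1A1 stood at 4.47 and 4.44, COL3A1 fell short of the dim level on both arrays, and so did the endothelial genes PECAM1, CDH5 and VWF. Of 5 platelet and megakaryocyte markers and 5 epithelial markers with a value, 0 were counted as different, beside 8.12% of all 14232 genes. ITGA2B stood at 4.58 and 4.47, PPBP at 1.67 in both lines, and EPCAM at 2.27 and 1.93. Of the 5 epithelial markers, 2 reached the dim level, KRT8 (8.27 and 8.12) and KRT19 (4.48 and 4.53), and of the 5 platelet markers 3 did. The part of other cells in the CD9 difference was not tested.

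The neighbours of CD9 on chromosome 12 did not share a difference of its size. Only 5 of the 9405 genes that reached the dim level, CD9 among them, were that much lower in SUDHL6. Nothing is therefore read from the lack of such a neighbour. KCNA5 and PLEKHG6, the nearest genes on each side of CD9 that reached the dim level, differed by 0.64 and -0.19. The 3 nearest on each side had a median of -0.07. The lowest of them, VAMP1 at -1.11, was the 1 of 6 counted as different, higher in HT as CD9 was. Beside this and the neighbour counts below, 12.3% of the 9405 genes that reached the dim level were counted as different. Nothing is read from these counts against that share. Around CD53 on chromosome 1, LAMTOR5 and LRIF1 differed by -0.78 and -0.89, opposite in sign to CD53, and the 6 neighbours had a median of -0.25. SLC16A4 was also opposite in sign, while RBM15, DRAM2 and CEPT1 had the sign of CD53, up to 0.52. Around TSPAN3 on chromosome 15, all 6 neighbours had the lower value in SUDHL6, as TSPAN3 did, with a median of -0.59. RCN2 and LINC00597, the nearest of these, differed by -0.74 and -0.44. DNAJA4, named after its value was seen, stood at 3.10 and 5.85, which puts HT higher by at least 4.10-fold. The share of this stretch of chromosome 15 in the TSPAN3 difference was not tested. The medians around the other 7 members lay between -0.29 (TSPAN14) and 0.20 (CD37). Around TSPAN14, PRXL2A (-1.08) and TMEM254 (-1.50) were counted as higher in HT, while the highest of its 6 neighbours differed by 0.35. DNAJA4 and SKIC8 were the 2 so counted around TSPAN3.

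**Figure D5:**
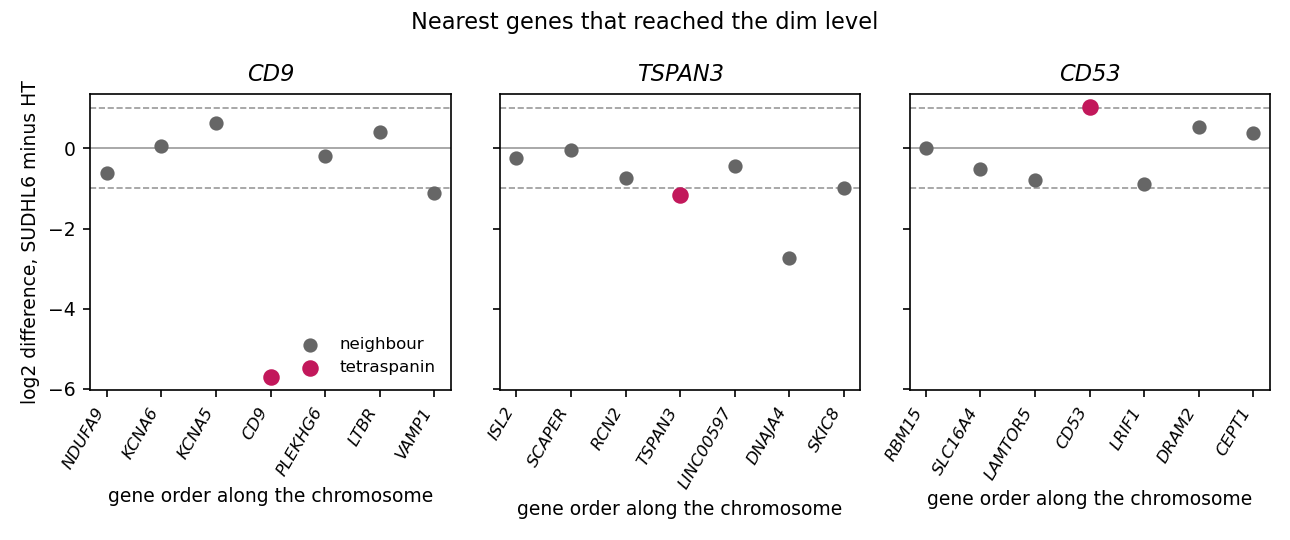
Log2 difference, SUDHL6 minus HT (vertical axis), of CD9, TSPAN3 and CD53 (red) and of the 3 nearest genes on each side that reached the dim level (grey), in gene order along the chromosome, with dashed lines at -1 and 1. CD9 lies at -5.70 among neighbours between -1.11 and 0.64, whereas all 6 neighbours of TSPAN3 lie below 0.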

How the data were processed

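RNA of 2 cell lines was measured on 1 exon array each. The authors deposited log2 values per probe set, made with RMA (background correction, normalization and probe summary). RMA and Affymetrix Expression Console stand in the submitters' processing notes, while versions, settings and build are not stated in the sources used here. RMA is known to compress differences between dim genes.

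From these, genes were named through GEO's platform annotation: 14432 probe sets named 1 gene, 2408 several, and 5171 were unnamed here. Symbols of 14404 were updated by gene number to RefSeq (GRCh38.p14), which also gave gene order and promoters. A gene with several probe sets of its own took the one with the highest mean. The members and lists were chosen with earlier results of these data known. Named were all members, other tetraspanins and up to 4 genes per list counted as different, fixed partners (ADAM10, IGSF8, PTGFRN, ITGB1, ITGA4 and HLA-DMB) and the nearest neighbours; further names give context and were picked with their values known. The calling rule was tested on simulated data, which checks the code and gives no measure of the spread between cultures. In the real data, the central 95% of differences among the olfactory receptor genes ran from -1.03 to 1.26. A further partner list is not reported here. Alternatives covered scaling, centring, the dim level, the threshold and the choice of probe set. Python 3.11.15, pandas 2.3.3 and statsmodels 0.14.6 (loess) were used.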

Additional observations from a re-analysis of the deposited data

How the results depend on the processing

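The counts of members kept CD53 as higher in SUDHL6 and CD9 and TSPAN3 as higher in HT under all alternatives except the thresholds. At 4-fold, 0 members were higher in SUDHL6 and 1 (CD9) in HT, and at 1.5-fold TSPAN14 joined the HT side, for 3. Over the whole family, the count higher in HT moved from 4 to 2 when dim values were raised to the dim level and to 2 with that level at the 99th percentile, to 8 at 1.5-fold and to 1 at 4-fold, while the count higher in SUDHL6 moved from 1 to 0 at 4-fold. The partner genes higher in SUDHL6 moved from 6 to 3 at 4-fold. Including probe sets that name several genes replaced HLA-DMB by ADAM17 and NOTCH2, for 7. The genes lost when dim values were raised or the level was set at the 99th percentile were TSPAN11 and TSPAN15. The other moves came with a change of threshold or of probe sets. The difference of CD9 ranged from -5.70 to -5.39, of TSPAN3 from -1.16 to -1.03 and of CD53 from 1.03 to 1.08. No member changed sign, although CD81 narrowed to -0.02 after loess. Quantile normalization turned the split of all genes from 498 higher in SUDHL6 and 657 in HT to 576 and 568. Values near the dim level, such as CD151, TSPAN11 and TSPAN15, are the least certain. No paired analysis was possible because each line has 1 array.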
